A study of Mus musculus with 4 samples.

Results

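The transcripts of 7 secreted growth factors of tissue repair, Igf1, Hbegf, Areg, Tgfb1, Pdgfb, Inhba and Gdf15, were followed in leukocytes of the inflamed intestinal muscle layer. The genes were chosen by name, as 7 of the 16308 genes in each count table. Droplet-based scRNA-seq had been performed on CD45+ cells of the small-intestinal muscularis externa after intestinal manipulation, a surgical handling of the bowel that inflames its muscle coat. The 4 libraries came from 12-week-old mice, WT (C57BL/6J) at 24 h, CCR2-/- (B6.129S4-Ccr2tm1Ifc/J) at 24 h, WT at 72 h and CCR2-/- at 72 h post-injury, and values for the 4 libraries are given in this order throughout. All groups had been operated. Monocytes need the chemokine receptor CCR2 to exit the marrow, and the mutation is carried by every cell of the CCR2-/- mice, not only by monocytes. Each library pooled several mice and there was 1 library per group, so no difference below has a replicate check, no test across mice was possible and the intervals, at 95%, cover counting error only.

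As background, macrophages (Mφs) that clear an injury also release growth factors that act on epithelium, fibroblasts, vessels and muscle. HB-EGF (Hbegf) and amphiregulin (Areg) are membrane-anchored ligands of the epidermal growth factor (EGF) receptor that are released by sheddases. TGF-β1 (Tgfb1), activin A (a dimer of the Inhba product) and GDF15 belong to the TGF-β superfamily, IGF-1 (Igf1) signals through its receptor tyrosine kinase to support growth and survival, and PDGF-B (Pdgfb) acts on mesenchymal cells and pericytes.

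The libraries held 1674, 1774, 1315 and 1048 cells with median depths of 12859, 3281.5, 12427 and 4990.5 unique molecular identifiers (UMIs) per cell. Cells were put into classes by markers, and the names end in "-like" because they rest on these markers alone. Monocyte/Mφ-like cells numbered 1287, 213, 910 and 131, and neutrophil-like cells 308, 1337, 188 and 577. The median depth was 14606, 15992, 14191.5 and 15127 UMIs in the former and 2075, 2947, 2440.5 and 3413 in the latter. Ccr2 was lower in the monocyte/Mφ-like cells of both CCR2-/- libraries, at 760, 95.1, 1066 and 89.4 UMIs per 1000000 UMIs of the class (CPM), without reaching 0; whether the counted 3' ends lie in the deleted part of the gene is not given in the sources used here. The monocyte/Mφ-like class was not made of the same cells in each library: a cluster led by Chil3, Vcan and Ly6c2 held 589, 55, 49 and 17 of its cells, one led by Ppbp, Pf4 and Spp1 held 562, 91, 14 and 7, one led by Apoe, Ms4a7 and Selenop held 9, 0, 435 and 3, and one led by Mmp13, Lilra5 and Cd81 held 31, 55, 54 and 74. A level of the whole class therefore mixes the level per cell with the make-up of the class, and the levels by subset are given further on. A further cluster, led by Cxcl13, Retnla and Prg4, held 69, 11, 147 and 22 cells and its 10 leading genes held 1 eosinophil marker and none of the class's own. Leaving its cells out left the number of the 7 genes past 2-fold in the 4 comparisons of this class as it was.

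RefSeq promoter windows of GRCm38.p6, 300 bases each, were matched for 5 of the 7 by symbol. The 100 bases before the start are shown for Areg (chr5:91139499-91139598) and Inhba (chr13:16011751-16011850), both on the plus strand, because their windows alone among the 5 genes hold the letters TATAAA. Capitals mark the letters of the cyclic AMP response element, TGACGTCA, and of the TATA box, TATAAA.
Areg: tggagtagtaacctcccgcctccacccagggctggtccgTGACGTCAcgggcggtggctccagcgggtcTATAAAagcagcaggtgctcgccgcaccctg
Inhba: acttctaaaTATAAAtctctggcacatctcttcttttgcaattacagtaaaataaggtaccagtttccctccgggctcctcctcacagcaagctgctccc
TGACGTCA begins 61 bases before the Areg start and was found, on either strand, in 1.79% of 32851 promoter windows of the same length. TATAAA, searched on the sense strand, begins 31 bases before the start of Areg and 91 before that of Inhba and was found in 8.32% of windows. The letters TGANTCA, a loose pattern for the AP-1 element in which N is any base, were found on either strand in 7.81% of windows. Of these genes they were found for Igf1 alone, 37 bases before the start site of its RefSeq window (position 87861111). That start site lies inside the gene as annotated by GENCODE, downstream of its first start. These matches are descriptions of the letters, not binding sites.

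In GRCm38 the genes, all protein-coding, lie on chromosome 10 (Igf1, 87858265 to 87937042, plus strand), chromosome 18 (Hbegf, 36504927 to 36515805, minus strand), chromosome 5 (Areg, 91139599 to 91148432, plus strand), chromosome 7 (Tgfb1, 25687002 to 25705077, plus strand), chromosome 15 (Pdgfb, 79995874 to 80014977, minus strand), chromosome 13 (Inhba, 16011851 to 16031621, plus strand) and chromosome 8 (Gdf15, 70629393 to 70632456, minus strand).

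The 7 genes differed in the cells that held them. Of 1747 Igf1 UMIs in all libraries, 98.5% were in monocyte/Mφ-like cells, and none were in neutrophil-like or T cell-like cells. Pdgfb was held by monocyte/Mφ-like cells (80.0% of 884 UMIs) and dendritic cell-like cells (10.3%), with 0 UMIs in neutrophil-like cells of all 4 libraries. Hbegf had more of its 1154 UMIs in neutrophil-like (56.1%) than in monocyte/Mφ-like cells (30.3%). Inhba and Gdf15 were found almost wholly in these phagocyte classes: of 1079 Inhba UMIs 59.0% were in monocyte/Mφ-like and 40.7% in neutrophil-like cells, and of 1932 Gdf15 UMIs 75.7% and 22.8%. Neither had a UMI in dendritic cell-like or T cell-like cells. Areg was the rarest, with 354 UMIs in 77 cells, of which 63.6% were in monocyte/Mφ-like and 24.0% in T cell-like cells. Tgfb1 was found in every class, with 72.0% of 16288 UMIs in monocyte/Mφ-like cells.

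**Figure D1:**
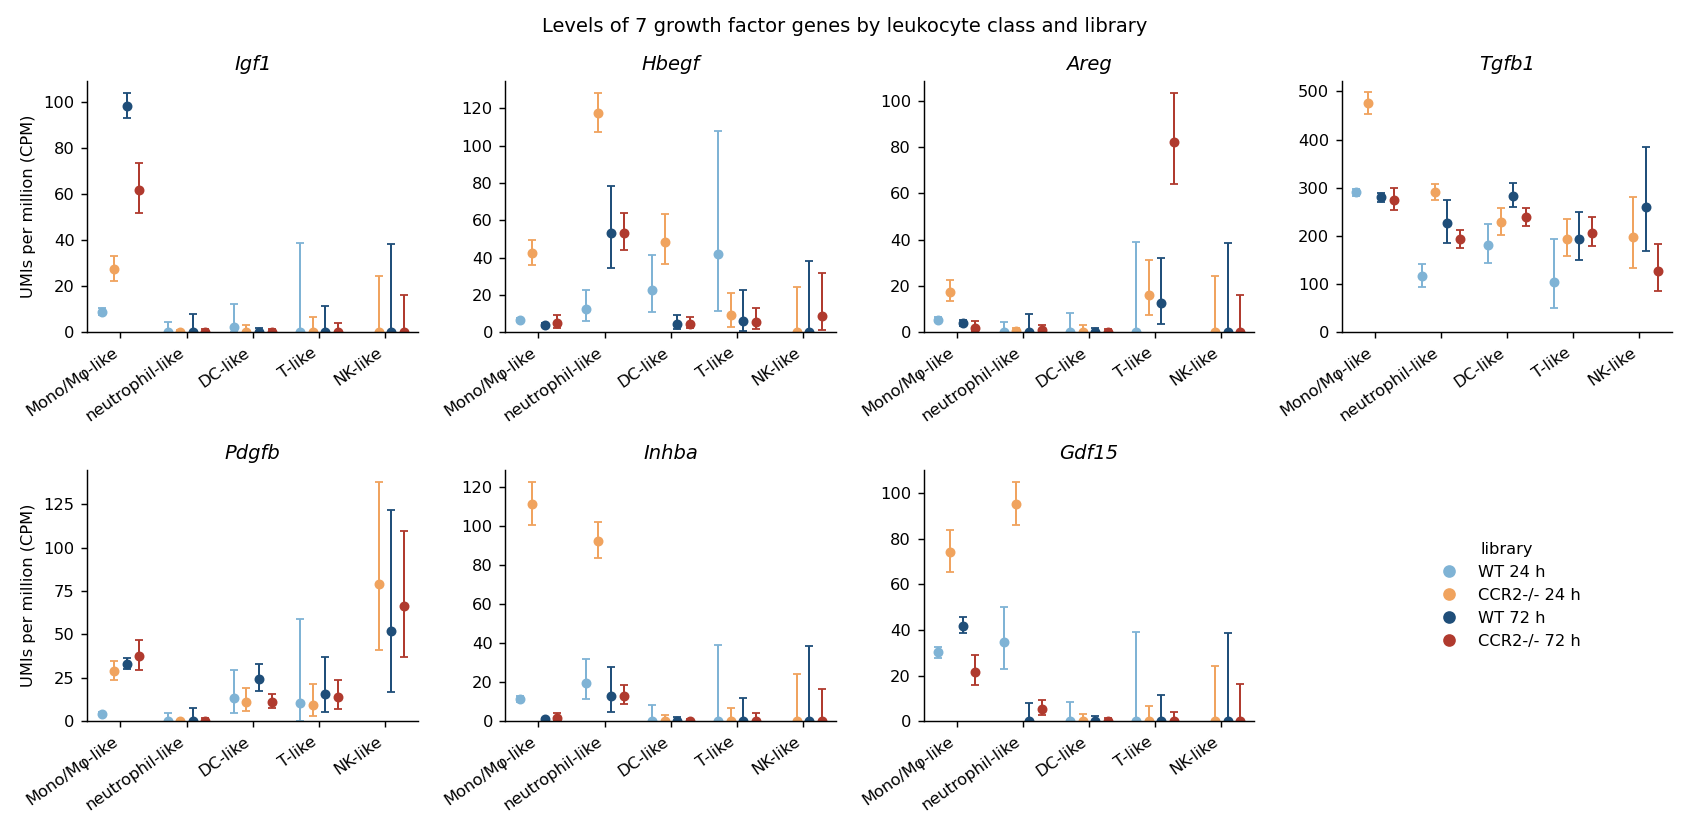
Level of each gene in CPM (vertical axis, linear) by leukocyte class with at least 14 cells in a library (horizontal axis), coloured by library, with points as levels and bars as 95% Poisson intervals. Igf1 stands above 0 in monocyte/Mφ-like cells and is near 0 in the other classes, the CCR2-/- 24 h library is highest for Hbegf, Tgfb1, Inhba and Gdf15 in both phagocyte classes, and Areg is highest in T cell-like cells of the CCR2-/- 72 h library at 82.0 CPM.

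With each library weighted equally, over classes that had at least 20 cells in 3 or more libraries, the order of the mean levels was neutrophil-like (59.0 CPM), dendritic cell-like (20.1) and monocyte/Mφ-like cells (14.6) for Hbegf, with ranges over libraries of 12.3 to 117, 4.60 to 48.6 and 4.04 to 42.5 CPM that overlapped. For Tgfb1 the means of monocyte/Mφ-like (331 CPM), dendritic cell-like (233), neutrophil-like (207) and T cell-like cells (199) also had overlapping ranges, apart from T cell-like cells (195 to 207 CPM), which lay below monocyte/Mφ-like cells (276 to 476). Pdgfb had its highest level in NK cell-like cells, which reached 20 cells in the CCR2-/- libraries alone, at 79.0 CPM (40.8 to 138) in CCR2-/- at 24 h and 66.3 (37.1 to 109) at 72 h, but on 12 and 15 UMIs. Monocyte/Mφ-like cells followed with a mean of 25.8 CPM and dendritic cell-like cells with 14.9. For Inhba (34.4 and 31.2 CPM in neutrophil-like and monocyte/Mφ-like cells) and Gdf15 (33.8 and 42.0) the libraries of one class overlapped those of the other, so no order could be set.

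In monocyte/Mφ-like cells at 24 h, 6 of the 7 transcripts were at least 2-fold higher in CCR2-/- than in WT: Inhba, Pdgfb, Hbegf, Areg, Igf1 and Gdf15. Among the 7355 genes that reached a mean of 10 CPM, 3.62% were past 2-fold, 2.35% higher and 1.26% lower. The median log2 ratio of all genes was -0.07. At 72 h, of the 4 transcripts that reached 10 CPM, 0 were past 2-fold between the genotypes, against 7.36% of 7939 genes (5.05% higher and 2.31% lower in CCR2-/-). Beside that share a count of 0 of 4 is not a result about these genes, and Hbegf, Areg and Inhba did not reach the level. This count was 1 or 2 under several other ways of processing, where Gdf15, Igf1 or Areg passed. From 24 h to 72 h, Igf1 and Pdgfb were higher in WT (2 of 4, against 12.2% of 7637 genes, 6.82% higher and 5.39% lower), and in CCR2-/- Igf1 was higher and Hbegf, Inhba and Gdf15 lower (4 of 6, against 14.6% of 7753 genes, 10.4% higher and 4.19% lower).

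**Figure D2:**
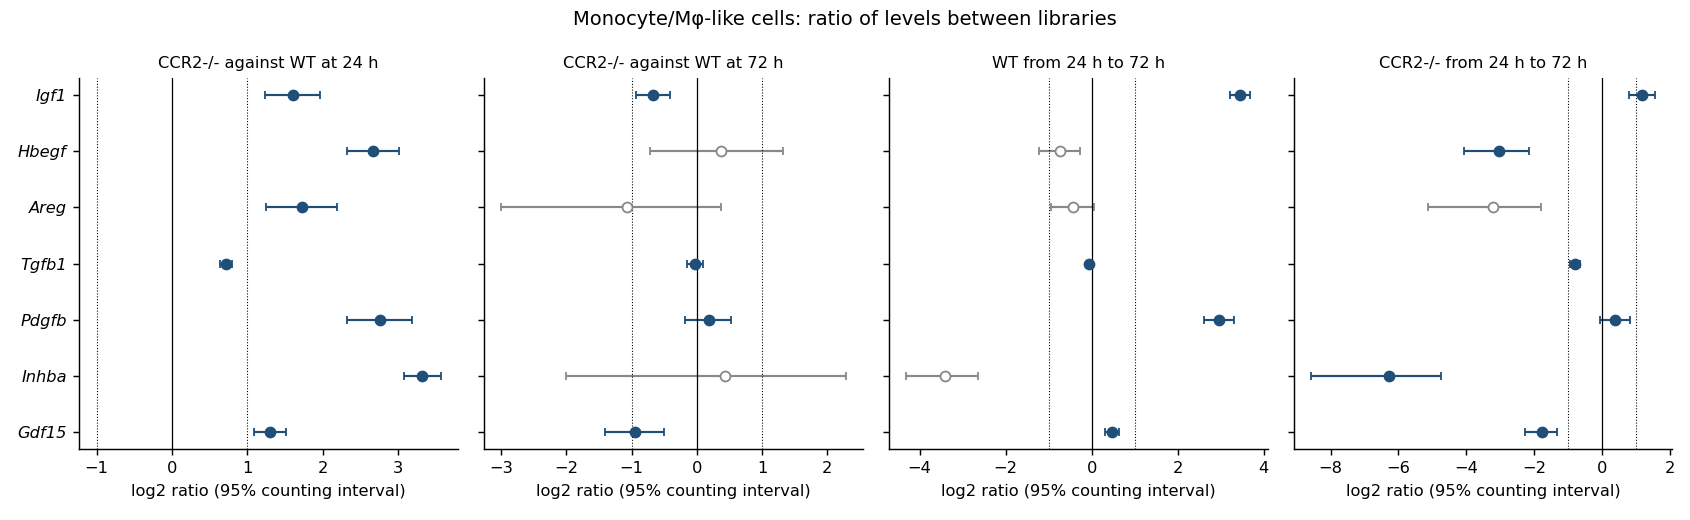
Log2 ratio of the level in monocyte/Mφ-like cells (horizontal axis) for each gene (vertical axis) in 4 comparisons between libraries, with bars as 95% counting intervals, filled points for genes with a mean of at least 10 CPM, open grey points for those under it, and dotted lines at 2-fold. In the left panel all 7 points lie to the right of 0 and only Tgfb1 lies within the dotted lines, and in the second panel no filled point lies outside them.

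Of the EGF receptor ligands, Hbegf was at 6.73, 42.5, 4.04 and 5.20 CPM in monocyte/Mφ-like cells (131, 154, 54 and 11 UMIs). The CCR2-/- 24 h library stood apart from the others, 6.31-fold above WT at the same time (log2 ratio 2.66, 2.31 to 3.01). By 72 h the genotypes were within counting error (0.37, -0.72 to 1.32), and the level in CCR2-/- was lower than at 24 h by 3.03 on the log2 scale (-4.06 to -2.15). Hbegf UMIs were found in 7.38%, 30.5%, 4.51% and 6.87% of the cells. With cells thinned to 1000 UMIs each, the shares were 0.86%, 2.86%, 0.333% and 1.59%, and those of T cell-like cells, taken as background, were 6.67%, 1.56%, 0% and 2.04% on 15 to 98 cells. The share of T cell-like cells in WT at 24 h was 1 of 15. At this depth Hbegf lay below the background share in WT at 24 h and CCR2-/- at 72 h. In CCR2-/- at 24 h (2.86% and 1.56%) and WT at 72 h (0.333% and 0%) it lay above. The T cell-like cells were too few to tell these shares apart from background. Folds of Hbegf over WT at 24 h, here and in the subsets, are over a level not told apart from background.

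Areg was at 5.34, 17.6, 3.96 and 1.89 CPM in monocyte/Mφ-like cells, on few cells: 23, 6, 10 and 2 held a UMI. The ratio of CCR2-/- to WT at 24 h (log2 1.72, 1.25 to 2.19) rested on 1 cell with 32 of the 64 UMIs of its library, a cell of the Arg1 subset. Without the highest cell of each library the log2 ratio was 0.94, and with all cells thinned to 1000 UMIs it turned to -0.20. At 72 h the WT level also came in large part from 1 cell, with 20 of 53 UMIs, which had one of the highest doublet scores and was T cell-like when cells were named by cluster. Csf1r, the receptor of the Mφ growth factor CSF1, was found in 23 of 23 Areg-positive and 94.2% of negative WT cells at 24 h, and Arg1 in 21 of 23 and 72.8%. In WT at 72 h Arg1 was found in 2 of 10 positive and 43.2% of negative cells, and Il7r, a lymphocyte gene, in 4 of 10 and 5.56%. In CCR2-/- at 24 h 4 of 6 positive cells held Csf1r and 3 of 6 held Il7r, compared with 87.0% and 20.3% of negative cells. The T cell gene Cd3e was found in 0 of the positive cells of these 3 libraries and in at most 1% of negative cells.

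Tgfb1, which encodes TGF-β1, was at 291, 476, 280 and 276 CPM in monocyte/Mφ-like cells. It was the steadiest of the 7: CCR2-/- at 24 h was 1.64-fold above WT (log2 0.71, 0.63 to 0.79), and the other libraries lay close together. The log2 ratio of the genotypes at 72 h was -0.02 (-0.15 to 0.10). Tgfb1 UMIs were found in 91.0%, 86.9%, 87.9% and 75.6% of cells, and after thinning in 24.2%, 37.1%, 21.4% and 19.8%, so that the library with the highest level also had the highest thinned share.

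Inhba, the subunit of activin A, varied most between the libraries. It was at 11.1, 111, 1.05 and 1.42 CPM in monocyte/Mφ-like cells, on 217, 403, 14 and 3 UMIs. CCR2-/- was 9.97-fold above WT at 24 h (log2 3.32, 3.08 to 3.56). In WT, 1 cell with 82 of the 217 UMIs carried 37.8% of the level, and without the highest cell of each library the log2 ratio was 3.83. At 72 h both genotypes were low, so that the log2 ratios over time were -3.41 (-4.31 to -2.64) in WT, under the level filter, and -6.29 (-8.58 to -4.73) in CCR2-/-, the latter on 3 UMIs. Thinned shares were 0.704%, 7.14%, 0.222% and 0%, against 0% in T cell-like cells of all 4 libraries.

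Gdf15, a secreted factor of the cellular stress response, was at 30.1, 74.2, 41.8 and 21.8 CPM (587, 269, 560 and 46 UMIs). The order of the genotypes differed between the times, with CCR2-/- higher at 24 h (log2 1.30, 1.09 to 1.51) and lower at 72 h (-0.94, -1.41 to -0.51). Both CCR2-/- levels leaned on single cells: 1 cell held 145 of the 269 UMIs at 24 h (53.9%) and 1 cell held 29 of 46 at 72 h (63.0%). The cell at 24 h had 12089 UMIs in all, of which 178 came from monocyte/Mφ markers and 28 from neutrophil markers. With the highest cell of each library left out, the ratio at 24 h was 0.38 and the one at 72 h -2.25 on the log2 scale, so the higher level at 24 h rested on that cell and the lower level at 72 h did not. The shares of cells with a UMI were 6.92%, 14.1%, 13.2% and 7.63%.

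**Figure D3:**
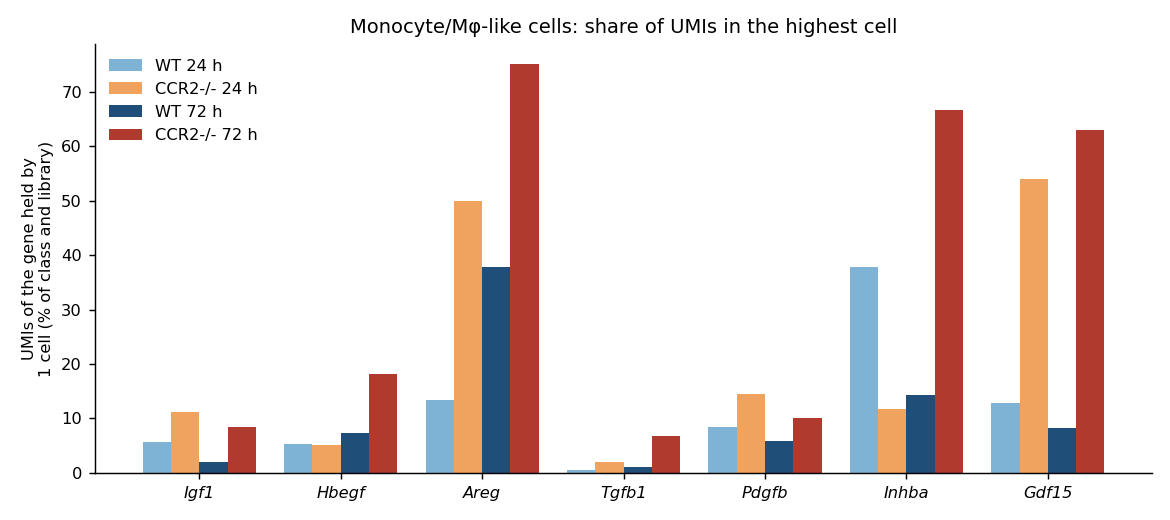
Share of a gene's UMIs in monocyte/Mφ-like cells that the single highest cell held (vertical axis, percent, from 0) for each gene (horizontal axis) and library (colour). In both CCR2-/- libraries the bars of Areg and Gdf15 are at 50% or more (75.0% for Areg at 72 h, on 4 UMIs), as does Inhba at 72 h (66.7%, on 3 UMIs), and those of Tgfb1 stay at 6.86% or less.

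Igf1 was at 8.99, 27.3, 98.3 and 62.0 CPM in monocyte/Mφ-like cells (175, 99, 1316 and 131 UMIs). Both 72 h libraries were above both 24 h libraries. CCR2-/- was 3.04-fold above WT at 24 h (log2 1.60, 1.23 to 1.97) and below it at 72 h (-0.67, -0.94 to -0.41). The level in WT at 72 h was 10.9-fold that at 24 h (3.45, 3.22 to 3.69), compared with 2.27-fold in CCR2-/- (1.18, 0.79 to 1.57). The latter was under 2-fold with TMM scaling, with levels averaged over cells, with classes from clusters and with at most 5% mitochondrial UMIs. Thinned shares of cells with Igf1 were 1.33%, 1.90%, 9.89% and 5.56%, against 0% in T cell-like cells of every library. Fibroblasts are another source of Igf1, and the summed level of 6 fibroblast markers in monocyte/Mφ-like cells was 1.39, 1.38, 10.4 and 8.99 CPM, with 0 to 3 markers at 0; their part in the level was not tested. Of the 379 Igf1-positive cells of WT at 72 h, 2.90% held Col1a1, a fibroblast collagen, compared with 1.32% of the 531 negative cells.

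Pdgfb was at 4.26, 28.7, 33.0 and 37.4 CPM in monocyte/Mφ-like cells (83, 104, 441 and 79 UMIs). WT at 24 h was the low library and the other 3 lay close together. The log2 ratio of CCR2-/- to WT was 2.75 (2.32 to 3.18) at 24 h and 0.18 (-0.18 to 0.53) at 72 h, and the level in WT at 72 h was 7.73-fold that at 24 h. Thinned shares were 0.547%, 4.29%, 4.11% and 3.17%, with 0% to 3.06% in T cell-like cells. The 3.06% was that of CCR2-/- at 72 h, so at this depth the share of that library was not told apart from that of T cell-like cells. T cell-like cells held 2.60% of the 884 Pdgfb UMIs of all libraries and neutrophil-like cells held 0. The T cell-like shares rested on 15 to 98 cells and set no firm background for any library. Endothelial cells and platelets are known sources of PDGF-B, and the summed CPM in monocyte/Mφ-like cells was 4.47, 9.65, 2.54 and 5.68 for 5 measured endothelial markers, of which 1 or 2 were at 0, and 0.924, 2.48, 1.87 and 5.20 for 4 platelet markers, of which 1 to 3 were at 0; their part in the level was not tested. Of the 39 Pdgfb-positive cells of CCR2-/- at 24 h, 1 held the endothelial gene Cdh5, as did 2 of 174 negative cells. Pf4, a gene of platelets that also led a Mφ cluster, was found in 84.6% of these positive and 45.4% of these negative cells, compared with 58.6% and 61.7% in WT at 24 h.

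To separate the make-up of the class from the level in like cells, the monocyte/Mφ-like cells were split by subset lists that the study names from its own clusters, with Igf1 left out of them. The study described these subsets in WT cells at homeostasis, 24 h and 72 h. It then matched their signatures to a further dataset of WT and CCR2-/- mice. The lists were chosen here with earlier results of these data known, so they are no independent evidence. Cells of the Ly6c monocyte list numbered 341, 27, 34 and 13, of the Arg1 list 216, 23, 12 and 7, of the Fabp5 list 211, 48, 2 and 3, of the Cx3cr1 list 44, 43, 211 and 54, of the Timp2 list 21, 1, 173 and 9 and of the Cd206 list 19, 1, 237 and 14, with 435, 70, 241 and 31 cells in no subset. Levels in fewer than 20 cells are not compared.

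Igf1 and Pdgfb followed the Cx3cr1, Timp2 and Cd206 subsets. In Cx3cr1 cells Igf1 was at 50.2, 56.9, 64.9 and 69.0 CPM, and none of the 4 comparisons lay outside counting error, with a log2 ratio of 0.18 (-0.56 to 0.94) between the genotypes at 24 h. Cx3cr1 cells made up 3.42% of the class in WT and 20.2% in CCR2-/- at that time. With subsets named by sub-clusters, however, Igf1 in Cx3cr1 cells was at 160, 90.2, 146 and 75.4 CPM, lower in CCR2-/- at both times. In other cells at 24 h Igf1 was higher in CCR2-/- than in WT, at 32.0 and 6.12 CPM in cells of no subset (log2 ratio 2.38, 1.69 to 3.07) and at 24.5 and 7.16 CPM in Arg1 cells (1.77, 0.48 to 2.93, on 9 UMIs in CCR2-/-), and in Fabp5 cells the interval reached 0 (-0.22, -1.12 to 0.59). The higher level of the class was thus found in some of its subsets and not in others. The highest level of Igf1 was in Cd206 cells of WT at 72 h, at 201 CPM (186 to 217), where 75.1% of 237 cells held a UMI, followed by Timp2 cells at 90.7 CPM (79.3 to 103). In Ly6c monocytes Igf1 was at 2.43 CPM in WT at 24 h and had 0 UMIs in 27 CCR2-/- cells at 24 h and 34 WT cells at 72 h, which allow levels above that of WT at 24 h.

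Pdgfb was highest in Cx3cr1 cells, at 68.8, 124, 59.8 and 55.4 CPM, with UMIs in 45.5%, 67.4%, 48.8% and 48.1% of them. Here CCR2-/- at 24 h was above WT by 0.85 on the log2 scale (0.28 to 1.45), less than the 2.75 of the whole class (118 and 131 CPM in WT and CCR2-/- with sub-clusters), and above the later CCR2-/- library (log2 ratio over time -1.16, -1.67 to -0.66). In WT at 72 h the level was 37.9 CPM in Timp2 and 17.2 CPM in Cd206 cells. In Arg1, Fabp5 and Ly6c monocyte cells of the 24 h libraries Pdgfb lay between 0 and 2.43 CPM, lower than in Cx3cr1 cells. At 24 h 43.1% of Pdgfb-positive and 12.0% of Pdgfb-negative WT cells held a UMI of Cx3cr1, the fractalkine receptor, and 66.7% and 9.77% of CCR2-/- cells did.

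Hbegf of CCR2-/- at 24 h and Inhba at 24 h showed the opposite distribution. Hbegf of WT at 24 h had no clear order, at 3.72 to 6.68 CPM in Ly6c monocyte, Arg1, Fabp5 and Cx3cr1 cells. At 24 h Hbegf was higher in CCR2-/- than in WT in Ly6c monocytes (67.6 and 6.68 CPM, log2 ratio 3.34, 2.56 to 4.11), Fabp5 cells (56.1 and 4.87, 3.53, 2.73 to 4.40) and Arg1 cells (43.5 and 6.57, 2.73, 1.70 to 3.72). In Cx3cr1 cells it was at 8.75 and 3.72 CPM on 6 and 2 UMIs, a difference within counting error. Inhba was at 138 CPM in CCR2-/- and 8.90 in WT in Ly6c monocytes, at 128 and 2.58 in Fabp5 cells (log2 ratio 5.64, 4.67 to 6.80) and at 131 and 15.8 in Arg1 cells. It had 0 UMIs in Cx3cr1 cells of both genotypes at that time. With sub-clusters the Ly6c monocytes of CCR2-/- at 24 h had 0 Inhba UMIs and 34.8 CPM of Hbegf, and Fabp5 cells 217 and 57.7 CPM, so the Inhba level of Ly6c monocytes depended on how the subset was drawn.

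Tgfb1 at 24 h was higher in CCR2-/- in each of these subsets, by 1.2 on the log2 scale in Ly6c monocytes (804 and 350 CPM), 0.65 in Fabp5 cells, 0.60 in Arg1 cells and 0.37 (0.06 to 0.70) in Cx3cr1 cells. Ly6c monocytes had the highest Tgfb1 level of the subsets in WT at both times, at 350 and 482 CPM. Gdf15 differed in direction between subsets. It was lower in CCR2-/- than in WT at 24 h in Fabp5 cells (21.9 and 54.1 CPM, log2 ratio -1.31, -2.0 to -0.68) and in Cx3cr1 cells (19 and 70.6 CPM, -1.90, -2.93 to -0.96), and higher in Ly6c monocytes (12.1 and 1.42, 3.09, 1.09 to 4.96, on 5 and 7 UMIs) and in cells of no subset (203 and 48.1), among which was the cell with 145 of the 222 UMIs. In Arg1 cells the interval reached 0 (1.38, -0.68 to 3.05). At 72 h the Gdf15 level of WT was highest in Cd206 cells, at 83.8 CPM, compared with 24.1 in Cx3cr1 and 27.6 in Timp2 cells. Areg in Arg1 cells at 24 h had a level of 12.8 CPM (WT) and 92.5 CPM (CCR2-/-), the latter with 32 of 34 UMIs in 1 cell. It was also higher in CCR2-/- in Ly6c monocytes, at 26.5 and 0.405 CPM on 11 and 2 UMIs. In cells of no subset it was higher too (log2 ratio 1.65, 0.77 to 2.49), and in Fabp5 cells lower, with 0 UMIs compared with 21 in WT. All Areg UMIs of the class in CCR2-/- at 24 h came from 6 cells, a limit that the counting intervals do not cover. Areg had 0 UMIs in 237 Cd206 cells of WT at 72 h.

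**Figure D4:**
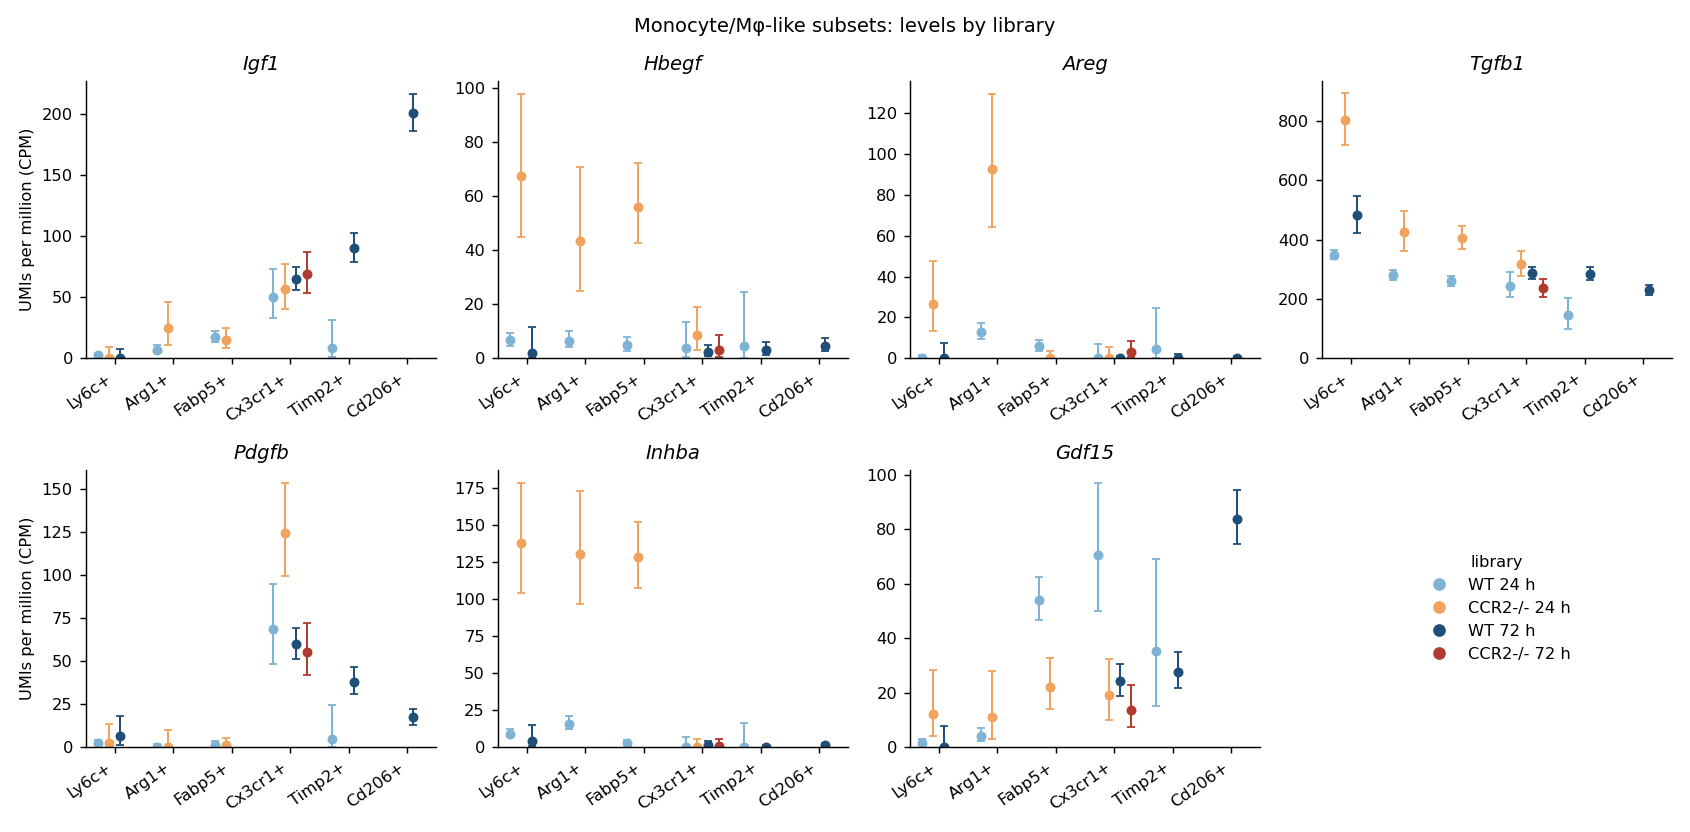
Level of each gene in CPM (vertical axis, linear) in subsets of monocyte/Mφ-like cells with at least 20 cells (horizontal axis), coloured by library, with bars as 95% Poisson intervals. Hbegf and Inhba of the CCR2-/- 24 h library are high in Ly6c, Arg1 and Fabp5 cells and low in Cx3cr1 cells, and Igf1 and Pdgfb have the reverse order.

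Neutrophil-like cells held Hbegf, Tgfb1, Inhba and Gdf15. At 24 h all 4 were at least 2-fold higher in CCR2-/- than in WT (4 of 4, where 9.83% of 5594 genes were past 2-fold, 5.15% higher and 4.68% lower). At 72 h 0 of the 3 that reached 10 CPM were past 2-fold, against 6.33% of 6719 genes (4.24% higher and 2.08% lower). Over time, Hbegf was higher and Gdf15 lower in WT (2 of 4, against 29.5% of 6207 genes, 24.4% higher and 5.06% lower), and Hbegf, Inhba and Gdf15 were lower in CCR2-/- (3 of 4, against 27.0% of 6267 genes, 23.4% higher and 3.57% lower). The median log2 ratio of all genes over time was 0.48 in WT and 0.43 in CCR2-/- in this class, so these lower values ran against a shift to higher ones.

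Hbegf was at 12.3, 117, 53.0 and 53.3 CPM in neutrophil-like cells (10, 493, 25 and 119 UMIs). CCR2-/- was 9.52-fold above WT at 24 h (log2 3.25, 2.36 to 4.32), and the 72 h libraries did not differ beyond counting error (0.01, -0.62 to 0.69). The thinned shares of 0.692%, 8.19%, 3.31% and 3.47% had the same order as the levels. Tgfb1 was at 117, 290, 227 and 194 CPM, with CCR2-/- at 24 h 2.48-fold above WT. Inhba was at 19.7, 92.3, 12.7 and 13 CPM, 4.68-fold higher in CCR2-/- at 24 h (log2 2.23, 1.51 to 3.05). Gdf15 was at 34.5, 95.2, 0 and 5.38 CPM, and the WT level at 24 h was 22 of 28 UMIs in 1 cell. Its 0 UMIs in 188 WT cells at 72 h allow a level of up to 6.36 CPM, so the log2 ratio over time in WT was at most -2.44, and it was -4.15 (-5.11 to -3.32) in CCR2-/-. Without the highest cell of each library the bound in WT was -0.22, so that Gdf15 was no longer past 2-fold there, the ratio in CCR2-/- was -4.76 and that of the genotypes at 24 h was 3.52 instead of 1.46.

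Since the neutrophil-like class held cells with the sialic acid-binding receptor gene Siglecf, which marks eosinophils and a subset of neutrophils, it was split by a Siglecf UMI after the data had been seen, into 24, 191, 82 and 284 cells with and 284, 1146, 106 and 293 without. Hbegf in cells without Siglecf was at 6.61, 109, 55.3 and 24.0 CPM and in cells with it at 90.8, 162, 49.8 and 88.0, the first of these on 5 UMIs. The higher Hbegf level of CCR2-/- at 24 h was found in cells without Siglecf (log2 ratio 4.05, 2.81 to 5.68), and in cells with it the interval reached 0 (0.84, -0.43 to 2.49). At 72 h Hbegf of CCR2-/- was lower than WT in cells without Siglecf (-1.21, -2.15 to -0.20) and not separable from it in cells with it (0.82, -0.12 to 1.93). Of the 69 Hbegf-positive cells of CCR2-/- at 72 h, 71.0% held Siglecf, compared with 46.3% of the 508 negative cells, at median depths of 3531 and 3407.5 UMIs. Gdf15 in CCR2-/- at 24 h was higher in cells without Siglecf (104 CPM) than in cells with it (42.9), and Inhba was at 86.2 and 127 CPM.

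**Figure D5:**
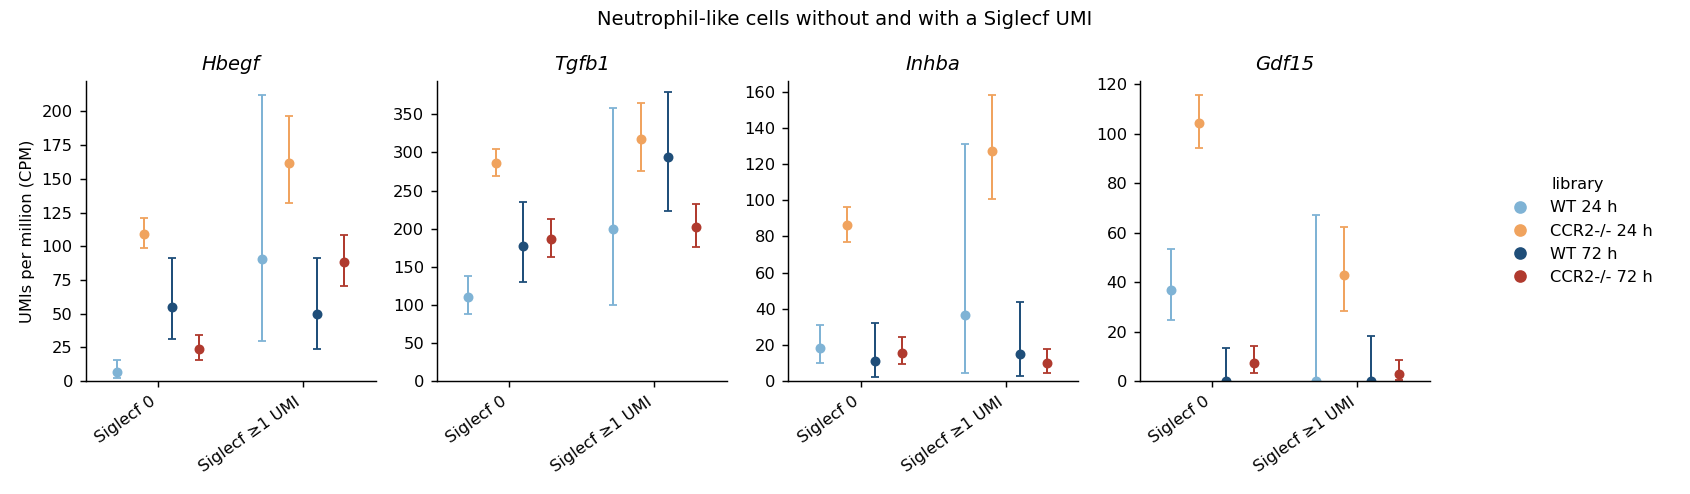
Level in CPM (vertical axis, linear) of 4 genes in neutrophil-like cells without and with a Siglecf UMI (horizontal axis), coloured by library, with bars as 95% Poisson intervals. The CCR2-/- 24 h points are the highest of the cells without Siglecf for every gene shown.

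Neutrophil markers were also read outside the neutrophil-like class, of which the library of CCR2-/- at 24 h held the most (75.4% of its cells). The summed level of 11 such markers was 938, 628, 493 and 540 CPM in monocyte/Mφ-like cells, of which monocytes make some themselves, 73.8, 495, 56.6 and 169 CPM in T cell-like cells and 176, 1132, 52.1 and 172 CPM in NK cell-like cells. In T and NK cell-like cells the sum was thus highest in CCR2-/- at 24 h, the library in which Hbegf, Tgfb1, Inhba and Gdf15 were highest in both phagocyte classes. The sums rested on few cells: in WT, 4 and 14 NK cell-like cells held 3 and 5 of these UMIs, and 15 T cell-like cells at 24 h held 7. The median per cell was 0, 1, 0 and 1 UMIs in T cell-like and 1, 0, 0 and 1 in NK cell-like cells, so the sums did not show in the typical cell. In the T cell-like cells of that library Inhba and Gdf15 had 0 UMIs in 65 cells and Hbegf had 5. Csf1r was found in 86.8% of the 38 Inhba-positive and 86.3% of the 175 Inhba-negative monocyte/Mφ-like cells of that library, and S100a8, a neutrophil and monocyte gene, in 52.6% and 29.1%, at median depths of 21437 and 15036 UMIs. The part of free RNA or doublets in these levels was not tested.

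Dendritic cell-like cells (29, 49, 95 and 94 cells) shared the course of Hbegf, with 22.4, 48.6, 4.60 and 4.70 CPM. CCR2-/- was above WT at 24 h by 1.11 on the log2 scale (0.13 to 2.25), and both 72 h libraries were lower. Pdgfb in these cells was at 13.5, 10.8, 24.2 and 11.2 CPM, lower in CCR2-/- at 72 h (log2 ratio -1.11, -1.83 to -0.40), where monocyte/Mφ-like cells did not differ.

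Outside the phagocytes, Areg was a lymphocyte transcript. In T cell-like cells (15, 65, 50 and 98) it was at 0, 16.4, 12.6 and 82.0 CPM on 0, 9, 4 and 72 UMIs, and in 20 innate lymphoid cell-like cells of CCR2-/- at 72 h at 73.0 CPM (38.9 to 125), on 13 UMIs in 5 cells. The 72 UMIs of T cell-like cells came from 12 cells, of which 1, with 33921 UMIs, held 38. Over all lymphocyte classes but B cell-like cells, Areg-positive cells held Foxp3, the transcription factor of regulatory T cells, in 3 of 3 cells of CCR2-/- at 24 h, 3 of 5 of WT at 72 h and 12 of 17 of CCR2-/- at 72 h. In negative cells the shares were 5.88% (6 of 102), 7.35% (5 of 68) and, in the last library, 10.4% (14 of 134), at a median depth of 7199.5 UMIs compared with 10801 in positive cells. In that library Il1rl1, Gata3 and Klrg1, innate lymphoid cell markers here, were found in 14, 16 and 12 of the 17 positive cells. The shares of negative cells were 2.24%, 57.5% and 10.4%. Cd3e was found in 12 of 17 and 63.4%. In CCR2-/- at 24 h Cd4 was found in 0 of 3 positive and 16.7% of negative cells. The positive cells were thus not assigned to 1 lymphocyte type.

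Within single cells, some of the 7 genes were found together. Leaving out Tgfb1, 74.0%, 37.1%, 35.6% and 47.3% of monocyte/Mφ-like cells held none of the other 6, and 3.81%, 17.4%, 16.8% and 14.5% held 2 of them, so WT at 24 h stood apart from the other libraries. Igf1 and Gdf15 were found together in every library: 21.8%, 43.3%, 21.6% and 19% of Igf1-positive cells held Gdf15, compared with 5.83%, 9.29%, 7.16% and 2.25% of Igf1-negative cells. The median depths of positive and negative cells were close in the first 3 libraries (14633 and 14605.5, 14902.5 and 16026, and 14441 and 14052 UMIs) and further apart in the last (17526.5 and 13055). In CCR2-/- at 24 h, Hbegf and Inhba were found together, with Hbegf in 23 of 38 Inhba-positive cells (60.5%, 43.4 to 76.0) and in 24.0% of negative ones, although the positive cells were deeper. By contrast, 1 of the 39 Pdgfb-positive cells of that library held Inhba (2.56%), compared with 21.3% of the negative cells, at median depths of 15992 and 15959 UMIs.

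The partners of these factors were read in monocyte/Mφ-like cells from lists of the pathways without the 7 genes themselves. Of the EGF receptor family and its sheddases, 3 of 6 measured genes reached 10 CPM in each comparison. The sheddases Adam10 (98.0, 100, 119 and 113 CPM) and Adam17 (90.6 to 103 CPM) differed little between libraries, and Rhbdf2, a cofactor of ADAM17, was past 2-fold in 1 comparison, higher in CCR2-/- at 72 h (log2 1.05). Of the other EGF receptor ligands only Nrg1 reached 10 CPM, in 2 of the comparisons, and it did not pass 2-fold.

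Among IGF receptors and binding proteins, 1 of 5 genes was higher in CCR2-/- at 24 h and 0 lower, 1 was higher and 1 lower of 6 at 72 h, 2 were higher and 2 lower of 6 over time in WT and 2 higher and 1 lower of 6 in CCR2-/-. Igfbp4, which binds IGF-1, was at 15.1, 25.9, 161 and 304 CPM and was thus higher at 72 h in both genotypes (log2 3.41 and 3.55), the same direction over time as Igf1. Insr, the insulin receptor, was also higher at 72 h (1.08 and 1.30). Igfbp6 was lower at 72 h (-1.32 and -1.51), and Igf2r, a scavenger receptor for IGF-2, was lower over time in WT (-1.96). Irs2, an adaptor of these receptors, was higher in CCR2-/- at 24 h (1.14).

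Of the PDGF ligands and receptors, Pdgfa was the one that reached 10 CPM at 24 h, where it was higher in CCR2-/- (7.29 and 39.7 CPM, log2 2.44) as Pdgfb was. At 72 h 0 of 2 were past 2-fold between the genotypes. Over time 2 of 2 were higher in WT, Pdgfa (1.37) and Pdgfc (1.77), and in CCR2-/- Pdgfc was higher (3.12) and Pdgfa lower (-1.14).

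Of the genes for TGF-β ligands and their activation other than Tgfb1, 0 of 4 were past 2-fold between the genotypes at 24 h and 2 of 5 were lower in CCR2-/- at 72 h: Thbs1, an activator of latent TGF-β (903, 1093, 459 and 210 CPM, log2 -1.13), and the latent TGF-β binding protein Ltbp3 (-1.03). Ltbp3 was higher over time in WT (2.39; 1 of 5) and Thbs1 lower in CCR2-/- (-2.38; 1 of 4). Nrros, which anchors latent TGF-β1 on myeloid cells, was at 229, 256, 256 and 213 CPM. Of the TGF-β receptors and targets 12 reached 10 CPM, of which Tgfbr1 was higher in CCR2-/- at 24 h (1.47), the repressor Tgif1 lower at 72 h (-1.05), Tgfbr1 (1.15), Tgfbr2 (1.29) and the co-receptor Eng (1.39) higher over time in WT, and in CCR2-/- Eng higher (1.05) and Tgif1 lower (-1.55). In the activin list 1 or 2 genes reached 10 CPM: Bambi, a pseudoreceptor, was lower in CCR2-/- at 72 h (-1.26), and the receptor Acvr1b was higher over time in CCR2-/- (1.02).

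Of the GDF15 receptor and stress response list, 5 genes reached 10 CPM, with 0 past 2-fold at 24 h and over time in WT. Atf3, a stress-induced transcription factor, was at 169, 230, 186 and 55.8 CPM, lower in CCR2-/- at 72 h (-1.74) and over time (-2.04), the comparisons in which Gdf15 was lower too, and Ddit3 was lower over time in CCR2-/- (-1.02). Of other growth factors, 3 of 6 were higher in CCR2-/- at 24 h: Csf1, the Mφ growth factor (6.11 and 52.9 CPM, 3.11), Vegfa, an angiogenic factor (11.5 and 29.8, 1.38), and Gas6, a ligand of TAM receptors that take part in clearing dying cells (1.06). Bmp2 was lower in CCR2-/- at 72 h (-1.80). Gas6 (2.97) and Bmp2 (2.19) were higher over time in WT, and in CCR2-/- Gas6 was higher (2.27) and Csf1 (-3.22), Vegfa (-3.98) and Osm (-1.39) were lower. Over all lists, 6 of 38, 9 of 41, 12 of 42 and 15 of 40 genes that reached 10 CPM were past 2-fold in the 4 comparisons, or 15.8%, 22.0%, 28.6% and 37.5%, beside 3.62%, 7.36%, 12.2% and 14.6% of all genes. The lists were drawn up with results of these data known, so these shares are descriptions.

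A list of 14 genes that tissue dissociation induces moved with some of the values of monocyte/Mφ-like cells. In monocyte/Mφ-like cells 0 were higher and 11 lower in CCR2-/- at 72 h (median log2 -1.34), compared with 2 higher and 0 lower at 24 h. Over time 4 were higher and 0 lower in WT (median log2 0.71), and 0 were higher and 8 lower in CCR2-/- (-1.08), the comparison in which Hbegf, Inhba and Gdf15 were lower. The summed level in this class was 8720, 9381, 9923 and 4986 CPM, with Atf3 counted among the genes. In neutrophil-like cells the list moved little over time in CCR2-/-, with 0 higher and 1 lower of the 12 that reached 10 CPM (median log2 -0.11). Hbegf, Inhba and Gdf15 were lower there too. Between the genotypes at 24 h, 1 was higher and 1 lower in neutrophil-like cells (0.14). The list's part in the lower levels of CCR2-/- at 72 h was not tested.

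Over 19 points of class and library with at least 20 cells, the genes with the most similar pattern by Pearson correlation of log2(CPM + 10), among 6325 genes that reached 50 CPM, were Gas6 (r = 0.98), Slco2b1 (0.97) and Cp (0.96) for Igf1. For Inhba they were Cxcl3 (0.90), Il1a (0.85) and Ralgds (0.85), for Gdf15 Mmp19 (0.90), Gpnmb (0.89) and Tfec (0.89), and for Pdgfb Pbx3 (0.89), Ext2 (0.85) and Pea15a (0.83). For Areg they were Lingo4 (0.89), Ccr4 (0.88) and Espn (0.88), for Hbegf Maff (0.85), Mthfs and its close paralog Mthfsl (both 0.83, with reads that counting may split between them), and for Tgfb1, the weakest, Uap1l1 (0.75), Clcn5 (0.75) and Plau (0.74). The points share libraries and depth, so these values are descriptions.

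Over all cells of a library, where the shares of the classes also enter, Igf1 had a log2 ratio of CCR2-/- to WT of -2.46 at 72 h, compared with -0.67 in monocyte/Mφ-like cells, which made up 69.2% of WT and 12.5% of CCR2-/- cells. Pdgfb was likewise at -1.0 over all cells and 0.18 (-0.18 to 0.53) in the class. Hbegf was at 3.25 at 24 h and 1.65 at 72 h, when neutrophil-like cells made up 14.3% of WT and 55.1% of CCR2-/- cells.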

How the data were processed

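The deposited tables hold raw UMI counts per gene and cell for 4 libraries. The authors made them with 10x Genomics 3' v3 chemistry and, per the labels, Cell Ranger 3.0.2 on GRCm38/mm10, and kept cells of at least 200 genes in which mitochondrial UMIs were at most 10%. Counting reads of a paralog to one gene can lower or split its level. The tables hold 5811 cells, of which 4 barcodes occur in 2 libraries each, with 21206308, 10436694, 16600493 and 9736725 UMIs in the order used in the report.

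Each cell was given the class of its highest marker score (mean of log-scaled markers, each relative to a high percentile and limited to 1) if the score was at least 0.15 and led by 0.05; 156 cells (2.68%) had no class and 331, among them 53 of 2541 monocyte/Mφ-like cells, lay near these limits. Leiden clusters, from which the 7 genes were left out, gave 94.4% of cells the same class. Subsets needed a mean z-score of 0.5 and a lead of 0.2. The UMIs of a class were summed per library and divided by all its UMIs (CPM), with exact Poisson and exact conditional intervals for levels and ratios and exact binomial (Clopper-Pearson) ones for shares. Ratios were counted as past 2-fold where the mean of both libraries was at least 10 CPM. A level of 0 was read against a floor of 3 UMIs per class and library. Thinning drew 1000 UMIs per cell and left out shallower cells. No test was run, since each group is 1 library. In simulated Poisson counts nearly all genes changed 4-fold were past 2-fold. These counts had no spread between cells or mice, so the result checks the computation and not the reliability of the calls.

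Whether doublets had been removed before deposit is not given in the sources used here. Scrublet's own limit marked 11 cells (0.189%), too few to have worked, so the 115 cells with the highest 2% of scores per library were removed as an alternative. All 7 genes were named, as were the 3 most similar genes by correlation. Pathway genes were named from those past 2-fold or the 3 highest of their list. The IGF list genes past 2-fold between the genotypes at 72 h are given as counts only. The 7 genes and all lists were chosen with earlier results of these data known. Analyses used Python 3.11.15, scanpy 1.11.5, leidenalg 0.10.2, numpy 2.4.6, scipy 1.17.1, pandas 2.3.3 and, for TMM factors, edgeR 4.0.16 in R 4.3.3.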

Additional observations from a re-analysis of the deposited data

Results flagged for a closer look

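For the following transcripts the same contrast had opposite signs in 2 settings with counting intervals that excluded 0, which is noted here without a test of the difference, since each group is 1 library. In monocyte/Mφ-like cells, the log2 ratio of CCR2-/- to WT was 1.60 at 24 h and -0.67 at 72 h for Igf1, and 1.30 and -0.94 for Gdf15. For Igf1 the ratio in Cx3cr1 cells was 0.18 (-0.56 to 0.94) at 24 h and 0.09 (-0.32 to 0.49) at 72 h. In cells of no subset it was 2.38 (1.69 to 3.07) and 0.03 (-0.65 to 0.64). The other subsets had too few CCR2-/- cells at 72 h to compare. With subsets named by sub-clusters, Igf1 of Cx3cr1 cells was lower in CCR2-/- at both times. The 1.30 rested on 1 cell with 145 of 269 Gdf15 UMIs, and the ratio at 24 h was -1.31 in Fabp5 and -1.90 in Cx3cr1 cells. That cell enters each Gdf15 ratio here that uses CCR2-/- at 24 h. Gdf15 over time was at 0.47 in WT and -1.77 in CCR2-/-. In neutrophil-like cells, the log2 ratio of 72 h to 24 h was 2.10 in WT and -1.14 in CCR2-/- for Hbegf, and 0.95 and -0.58 for Tgfb1. Over all cells, the log2 ratio of CCR2-/- to WT at 24 h and 72 h was 0.27 and -0.27 for Tgfb1, 1.58 and -1.0 for Pdgfb and 1.15 and -2.05 for Gdf15. Over all cells, Gdf15 over time was at 0.23 in WT and -2.97 in CCR2-/-.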

How the results depend on the processing

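No paired analysis was possible because each group is 1 library. The 6 transcripts past 2-fold between genotypes at 24 h in monocyte/Mφ-like cells were 4 with all cells thinned to 1000 UMIs (Hbegf, Pdgfb, Inhba and Gdf15) and 4 without the highest cell of each library (Igf1, Hbegf, Pdgfb and Inhba). Areg, at a log2 ratio of 1.72, turned to -0.20 when thinned. The count of 0 at 72 h became 1 with TMM scaling, with the mean over cells, without the level filter and without the highest cell, and 2 with Leiden clusters, with at most 5% mitochondrial UMIs and after thinning. Removing cells called by Scrublet, cells of the highest doublet scores, cells near the limits or the cluster led by Cxcl13, the second and last of these added after seeing the data, left it at 0. Of the pathway genes, 18 instead of 6 at 24 h and 22 instead of 12 over time in WT passed a limit of 1.5-fold. In neutrophil-like cells, leaving out the highest cell, an alternative chosen after seeing the data, lowered the count over time in WT from 2 to 1 (Gdf15 lost) and left the other counts as they were. Of 320 recomputed log2 ratios of the 7 genes, 263 kept within their counting interval, 56 moved further and 1 was reversed. Of 91 subset levels, 41 moved beyond their interval when subsets were named by sub-clusters. Thinned shares moved in 14 of 28 cases at 2000 UMIs per cell, a depth at which more cells hold a UMI by construction. Depth limits values on few UMIs, and with 1 library per group a difference between mice and one between genotypes cannot be told apart. The causes of the other moves were not tested.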
